A study of Mus musculus with 2 samples.

Results

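The zinc finger genes described here are the genes named Zfp and a number on mouse chromosomes 2, 13 and 17 that had at least 20 read counts summed over both libraries of the study. Of 92 such genes in the deposited table, 83 met that minimum, out of 19202 genes in the whole table and 14004 at the same minimum. Chromosome 2 held 16 of them, chromosome 13 held 27 and chromosome 17 held 40. The rule used chromosome, name and summed count, not the difference between the libraries. RNA sequencing was done on telencephalic tissue of C57BL/6 mouse embryos at embryonic day 12, from H2AZ cKO embryos, a conditional knockout of the histone variant H2A.Z, and from H2AZ fl/fl embryos, whose floxed allele had not been deleted. The sources used here do not name the Cre driver of the knockout, and so not the cells that lost the allele. The series text speaks of triplicates, while the deposited table has a single column of counts for each genotype, called a library here. No difference below therefore has a replicate check, and no test of the genotype was run.

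H2A.Z replaces histone H2A in nucleosomes beside transcription start sites and is also encoded by a paralog, H2afv. C2H2 zinc finger genes form the largest family of DNA-binding proteins in mammals. Many carry a KRAB domain, which binds the corepressor TRIM28, known also as KAP1, and through it recruits the histone methyltransferase SETDB1 and heterochromatin proteins. KRAB zinc finger genes arose by repeated duplication and lie in arrays, many of them fast evolving in rodents, and a large share of the proteins bind transposable elements. In the brain, TRIM28 is known for silencing retrotransposons.

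The targeted gene, H2afz, had 1664 counts in the H2AZ cKO library and 2605 in the H2AZ fl/fl library, a ratio of 0.661 (0.621 to 0.703) after scaling; the deleted part of the gene is not named in the sources used here. Here and below, a ratio is H2AZ cKO over H2AZ fl/fl with library sizes scaled by edgeR's TMM method, and the range is the exact 95% binomial (Clopper-Pearson) interval of the 2 counts, so it holds counting error alone. No molecular tags are named for these libraries, so reads are not independent molecules. Log2 ratios are differences of log2(CPM + 1), where CPM is counts per 1000000 counts of the scaled library, and understate the change of genes at low counts. The columns summed to 8839840 counts in H2AZ cKO and 8891198 in H2AZ fl/fl. All 9 telencephalic markers were detected in both libraries, with a summed level of 2407 CPM in H2AZ cKO and 2192 CPM in H2AZ fl/fl. The libraries also differed in markers of other cells and in sex-linked genes. The 4 erythroid markers summed to 505 CPM in H2AZ cKO and 262 CPM in H2AZ fl/fl, and the 4 microglial and macrophage markers to 18.9 CPM in H2AZ cKO and 8.87 CPM in H2AZ fl/fl. The 6 markers of diencephalon and hypothalamus summed to 73.7 CPM in H2AZ cKO and 122 CPM in H2AZ fl/fl. Xist had 6384 counts in H2AZ cKO and 200 in H2AZ fl/fl, while 4 Y-linked genes together had 8 in H2AZ cKO and 1716 in H2AZ fl/fl. With 1 library per genotype, these differences and the genotype cannot be told apart in any value below, nor can fewer cells of a type and less RNA per cell.

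The 83 genes were mostly weakly transcribed. Their summed counts ran between 24 for Zfp459 and 4958 for Zfp57, with a median of 243. Per kilobase of transcript, the median level was 3.81 CPM in H2AZ cKO and 4.11 CPM in H2AZ fl/fl, and in H2AZ fl/fl single genes ranged from 0.366 CPM for Zfp459 to 104 CPM for Zfp57. Zfp57, a KRAB zinc finger gene whose protein keeps DNA methylation at imprinted loci, stood far above the rest of the 83 genes per kilobase in both libraries. Together the genes took 0.211% of counts in H2AZ cKO and 0.222% in H2AZ fl/fl. The 9 genes left out by the minimum had 22 counts in H2AZ cKO and 44 in H2AZ fl/fl in all. Nearest to the minimum from inside was Zfp459, with 13 counts in H2AZ cKO and 11 in H2AZ fl/fl, and no gene left out came within 5 counts of it.

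**Figure D1:**
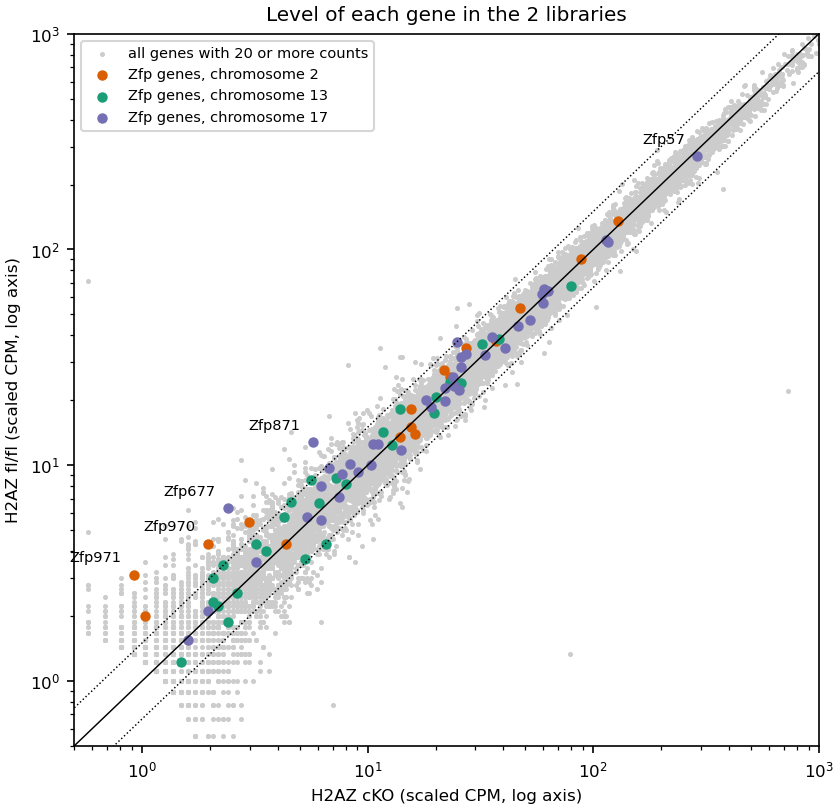
Scaled level of each gene in the H2AZ cKO library (x axis, CPM, log axis) against the H2AZ fl/fl library (y axis, CPM, log axis), for all 14004 genes with 20 or more counts (grey) and the 83 zinc finger genes by chromosome. The solid line marks equal levels and the dotted lines 1.5-fold, and most coloured points follow the solid line. The labelled genes Zfp970, Zfp971, Zfp677 and Zfp871 lie above the upper dotted line, lower in H2AZ cKO. Zfp931, Zfp442 and Zfp712, not labelled, also lie above it, and Zfp58 lies just past the lower dotted line.

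Most of the genes lay close to equal levels, with a shift of the whole distribution to slightly lower values in H2AZ cKO. Their median log2 ratio was -0.07, with quartiles of -0.25 and 0.05, against a median of 0.01 over all genes. Of the 83, 53 were below 0 (63.9%), where 48.8% of all genes were, and 30 were above. On the log2(CPM + 1) scale, which sizes below refer to, 78 genes stayed within 1.5-fold; by the plain ratio, Zfp442 at 0.517 and Zfp712 at 0.658 were also past 1.5-fold lower and Zfp58 at 1.51 past 1.5-fold higher. At least 1.5-fold lower in H2AZ cKO were 5 genes (6.02%), against 2.45% of all genes, and at least 1.5-fold higher were 0 genes, against 1.54%. The 5 genes had summed counts of 36 to 165, and 3 of them are neighbours in 1 cluster. A difference of 2-fold or more, in the direction of lower levels, was seen in 3 genes, against 0.436% of all genes. The counting interval lay wholly below 1 for 13 genes (15.7%) and wholly above 1 for 2 genes (2.41%), where 11.3% and 12.9% of all genes did. So the share of genes with a lower interval was near the background, and the share with a higher one was below it. These shares, and those of 1.5-fold and 2-fold, do not compare like with like. The 83 genes had a median of 243 summed counts and all genes 548. Lower counts give wider intervals and more scattered ratios. Of the 83 genes, 37 overlap another annotated gene, among them Zfp677, Zfp799, Zfp712, Zfp738 and Zfp131, and whether counting used strand is unknown. For 19 of the 83, over 10% of the 75-base words of their transcripts also occur in other genes, among them Zfp442, Zfp738, Zfp213 and Zfp414. Summed over the 83 genes, there were 18656 counts in H2AZ cKO and 19782 in H2AZ fl/fl, a ratio of 0.976 (0.956 to 0.995). Over all 14004 genes at the minimum, the summed ratio was 1.029 (1.028 to 1.030) on the same scale. Summed ratios here and below were computed with TMM scaling alone. Whether such an interval, where it ends close to 1, holds 1 can depend on the scaling.

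**Figure D2:**
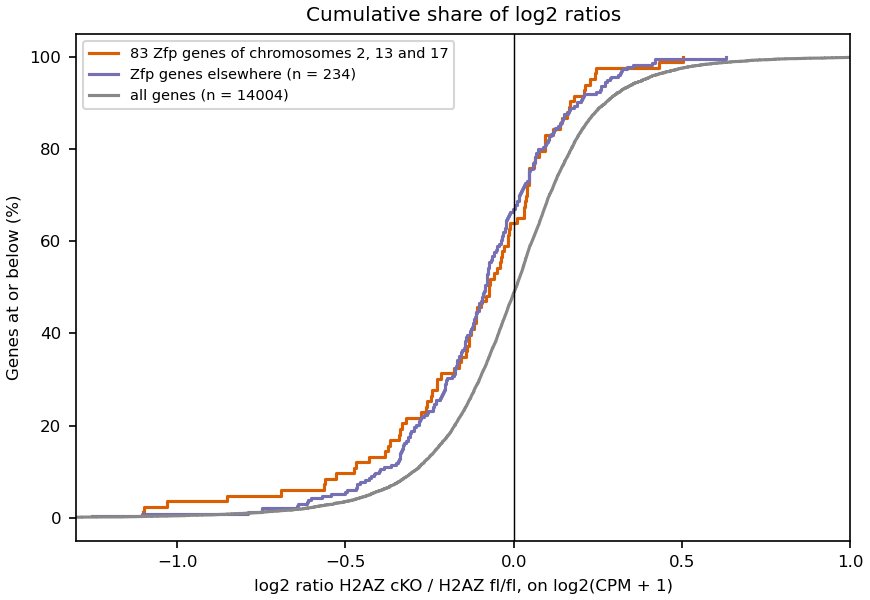
Cumulative share of genes (y axis, percent) by log2 ratio of H2AZ cKO over H2AZ fl/fl (x axis) for the 83 zinc finger genes of chromosomes 2, 13 and 17, the 234 on other chromosomes and all 14004 genes. Both zinc finger curves run to the left of the curve of all genes through most of the range.

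The domain that binds TRIM28 was annotated for 67 of the 83 genes in the deposited table, which names a single protein family per gene and may miss the domain in others. These KRAB genes had a median log2 ratio of -0.07 and the 16 others had -0.07 as well. All 5 genes with a 1.5-fold lower level carried KRAB. By position, the 59 KRAB genes in genomic clusters had a median of -0.11, with 41 below 0, while the 8 isolated ones had a median of 0.04, with 2 below 0. Of the isolated ones, Zfp661, Zfp72, Zfp825, Zfp959 and Zfp960 had equal counts in both libraries, so their values above 0 come from the scaling alone. With a trend on transcript length, GC content and level removed, the medians were -0.09 for clustered and -0.004 for isolated KRAB genes. This difference was not tested. A cluster is a run of at least 3 of the genes with gaps of at most 1 Mb. There were 7, holding 62 genes, and 21 genes were isolated. The summed counts of clustered genes were 9361 in H2AZ cKO and 10217 in H2AZ fl/fl, a ratio of 0.948 (0.922 to 0.975), and those of isolated genes were 9295 in H2AZ cKO and 9565 in H2AZ fl/fl, a ratio of 1.01 (0.977 to 1.03). Abundant genes weigh most in such sums. Zfp57 alone gave 2517 of the isolated counts in H2AZ cKO and 2441 in H2AZ fl/fl.

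**Figure D3:**
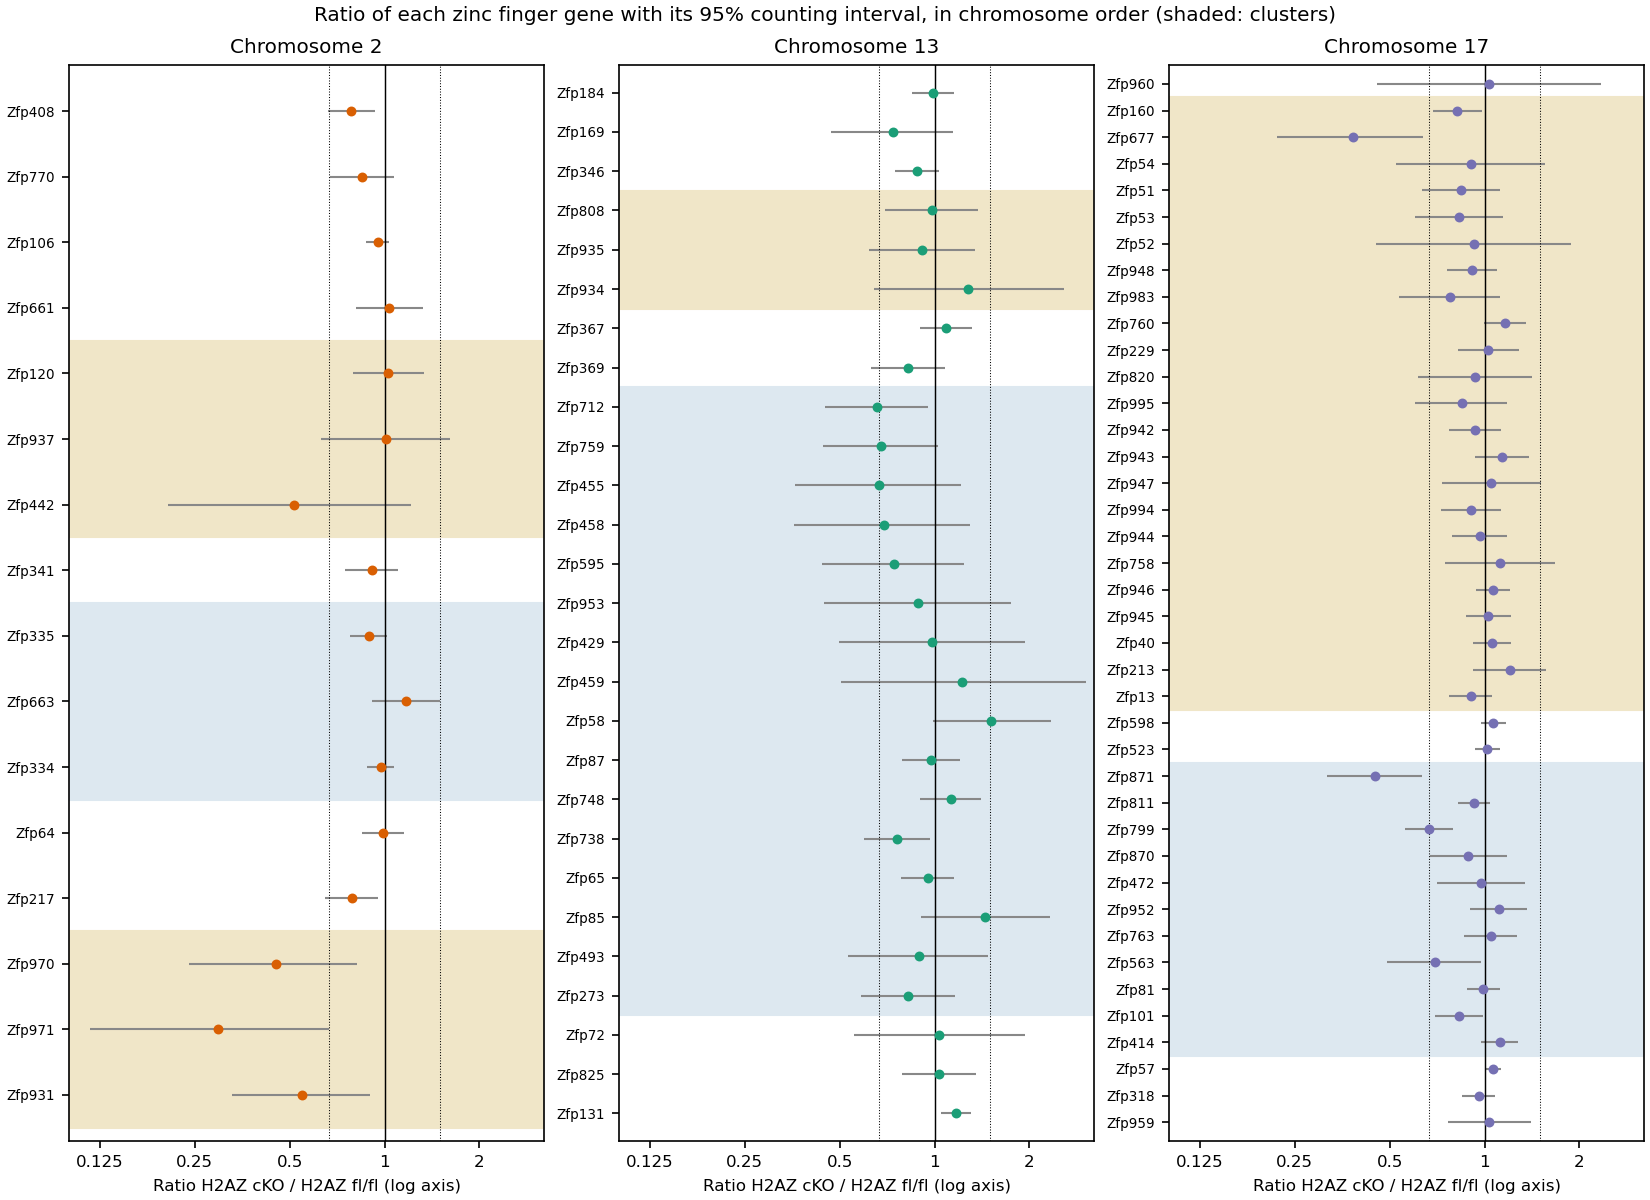
Ratio of H2AZ cKO over H2AZ fl/fl (x axis, log axis) of each of the 83 genes in chromosome order, with lines for the exact 95% counting interval. Shaded bands mark the 7 clusters and dotted lines 1.5-fold. All 3 genes of the last cluster of chromosome 2 lie left of the lower dotted line, as do Zfp442, Zfp712, Zfp677 and Zfp871. Zfp58 lies just right of the upper dotted line.

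The cluster near the distal end of chromosome 2 differed most. It spans chr2:177464733-178078476 in GRCm38 coordinates and holds the KRAB genes Zfp970, Zfp971 and Zfp931. Zfp970 had 17 counts in H2AZ cKO and 39 in H2AZ fl/fl, a ratio of 0.451 (0.239 to 0.816). Zfp971 had 8 counts in H2AZ cKO and 28 in H2AZ fl/fl, a ratio of 0.296 (0.116 to 0.666). Zfp931 had 26 counts in H2AZ cKO and 49 in H2AZ fl/fl, a ratio of 0.549 (0.327 to 0.901). All 3 were thus lower in the H2AZ cKO library, by 1.5-fold or more. Their sum was 51 in H2AZ cKO and 116 in H2AZ fl/fl, a ratio of 0.455 (0.321 to 0.637). The other 6 clusters had summed ratios between 0.921 and 0.987.

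**Figure D4:**
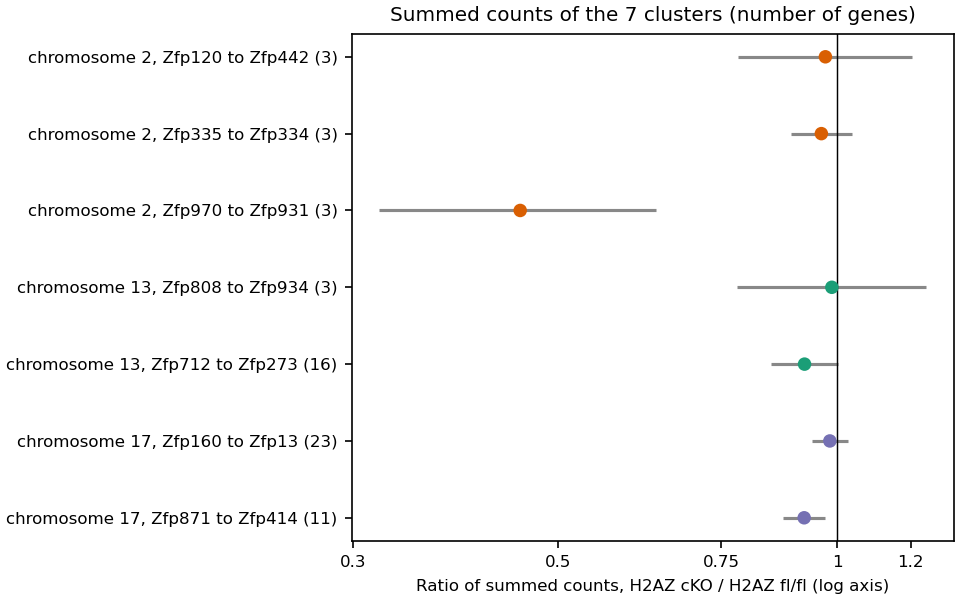
Ratio of summed counts, H2AZ cKO over H2AZ fl/fl (x axis, log axis), for each of the 7 clusters with the number of genes in parentheses; lines are exact 95% counting intervals. The cluster of Zfp970, Zfp971 and Zfp931 sits at 0.455 and the others between 0.921 and 0.987.

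The neighbours of these genes had few reads. Counting every annotated KRAB gene between Zfp970 and Zfp931, also those under the minimum, gave 9 genes with 83 counts in H2AZ cKO and 165 in H2AZ fl/fl, a ratio of 0.520 (0.395 to 0.682). Of them, Gm14325 had 12 counts in H2AZ cKO and 20 in H2AZ fl/fl, Gm14403 had 6 in H2AZ cKO and 11 in H2AZ fl/fl, and Zfp972 had 0 in H2AZ cKO and 5 in H2AZ fl/fl. Gm14326 had 10 counts in H2AZ cKO and 7 in H2AZ fl/fl, and Gm14324 had 2 in H2AZ cKO and 1 in H2AZ fl/fl, so these 2 were not lower in H2AZ cKO. Near-identical copies make single genes of the cluster uncertain. In mature transcripts, 30.4% of the 75-base words of Zfp970, 32.8% of those of Zfp971 and 12.6% of those of Zfp931 also occur in another gene, and the sources used here do not say how reads with several matches were counted. Zfp971 also overlaps Gm26869 on the other strand, with 6 counts in H2AZ cKO and 20 in H2AZ fl/fl, and without known strand use reads of the overlapping genes cannot be told apart. Of the 3 genes, none is left when genes sharing over 10% of their words are set aside.

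**Figure D5:**
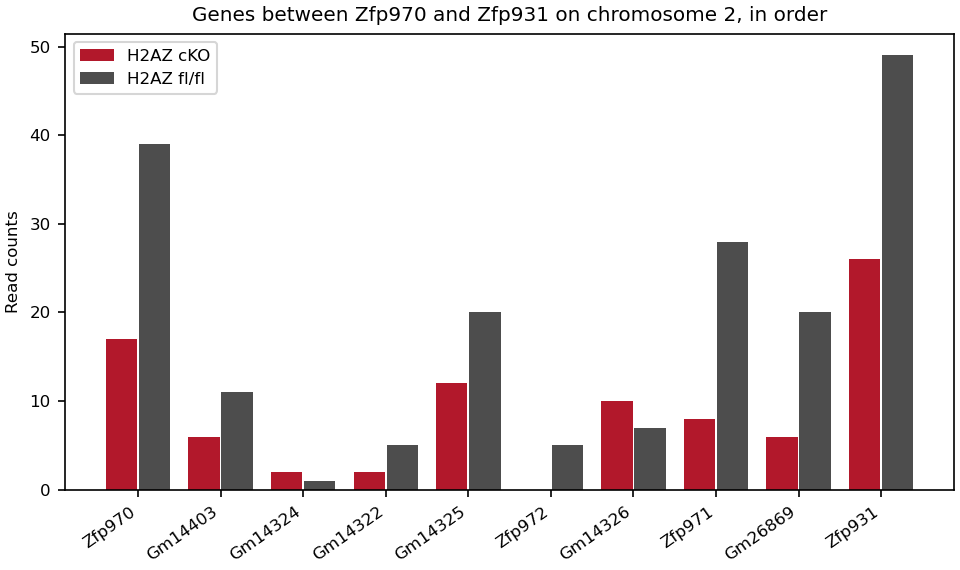
Read counts (y axis, unscaled) of the genes from Zfp970 to Zfp931 on chromosome 2 (x axis, in order of position), with H2AZ cKO in red and H2AZ fl/fl in grey. Zfp970, Zfp971, Gm26869 and Zfp931 show the largest gaps between the libraries, and 3 of the KRAB genes have 7 counts or fewer in both.

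The start regions of the 3 genes are shown because they let a reader see how alike these duplicated genes are where transcription begins, and how few CpG dinucleotides they hold. The sequences are RefSeq promoters of GRCm38.p6, from 250 bases before the start to 50 bases after it, 5′ to 3′ on the gene's strand, with each CG in capitals. Zfp970 is at chr2:177464492-177464791 on the plus strand, Zfp971 at chr2:178023034-178023333 on the plus strand and Zfp931 at chr2:178078376-178078675 on the minus strand.
Zfp970: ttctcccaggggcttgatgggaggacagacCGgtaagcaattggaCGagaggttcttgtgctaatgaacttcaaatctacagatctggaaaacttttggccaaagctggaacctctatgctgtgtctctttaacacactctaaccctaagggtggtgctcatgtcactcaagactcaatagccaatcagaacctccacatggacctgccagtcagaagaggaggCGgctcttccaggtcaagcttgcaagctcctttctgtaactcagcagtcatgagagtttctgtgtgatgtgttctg
Zfp971: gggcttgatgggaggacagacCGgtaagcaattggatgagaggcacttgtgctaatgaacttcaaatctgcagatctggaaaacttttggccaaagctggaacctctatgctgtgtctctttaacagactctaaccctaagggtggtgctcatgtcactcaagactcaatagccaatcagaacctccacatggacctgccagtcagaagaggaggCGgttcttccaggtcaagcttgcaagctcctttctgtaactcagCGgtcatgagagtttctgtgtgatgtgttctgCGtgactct
Zfp931: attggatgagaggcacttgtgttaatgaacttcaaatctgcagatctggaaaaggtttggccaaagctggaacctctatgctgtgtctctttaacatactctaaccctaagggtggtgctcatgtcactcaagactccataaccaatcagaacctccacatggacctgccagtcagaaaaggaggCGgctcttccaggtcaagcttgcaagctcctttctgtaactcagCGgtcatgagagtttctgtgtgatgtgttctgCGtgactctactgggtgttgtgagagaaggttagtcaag
Zfp970 and Zfp971 were 91.9% identical over a global alignment of these windows, gaps counted as differences, Zfp971 and Zfp931 79.4%, and Zfp970 and Zfp931 73.5%. The windows start at different points of the shared sequence, that of Zfp931 farthest in. Unmatched window ends count as differences, so these percentages understate how alike the overlapping stretches are. A run of 41 bases occurs unchanged in all 3. CG occurs 3 times in the windows of Zfp970 and Zfp931 and 4 times in that of Zfp971.

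Elsewhere on chromosome 2, no gene was 1.5-fold lower or higher on the log2(CPM + 1) scale. The cluster from Zfp120 to Zfp442 had 168 counts in H2AZ cKO and 179 in H2AZ fl/fl, a ratio of 0.971 (0.782 to 1.21). The genes with the most counts in it were Zfp120, with 121 counts in H2AZ cKO and 122 in H2AZ fl/fl, and Zfp937, with 38 in H2AZ cKO and 39 in H2AZ fl/fl. Zfp442 had 9 counts in H2AZ cKO and 18 in H2AZ fl/fl, a ratio of 0.517 (0.205 to 1.21), too few to tell from 1. The cluster from Zfp335 to Zfp334 had 1325 counts in H2AZ cKO and 1426 in H2AZ fl/fl, a ratio of 0.961 (0.891 to 1.04). In it, Zfp335, whose human counterpart is mutated in a form of microcephaly, had 414 counts in H2AZ cKO and 481 in H2AZ fl/fl, a ratio of 0.890 (0.779 to 1.02). Zfp663 had 142 counts in H2AZ cKO and 126 in H2AZ fl/fl, and Zfp334 had 769 in H2AZ cKO and 819 in H2AZ fl/fl. None of the 3 intervals left out 1. Among isolated genes, Zfp217, known in human cancer as an oncogene and a partner of corepressor complexes, had 190 counts in H2AZ cKO and 250 in H2AZ fl/fl, a ratio of 0.786 (0.648 to 0.953). Zfp408, whose human counterpart is mutated in an inherited disease of retinal vessels, had 238 counts in H2AZ cKO and 314 in H2AZ fl/fl, a ratio of 0.784 (0.660 to 0.931). Both were lower beyond counting error but within 1.5-fold. Zfp106, which encodes an RNA-binding protein, had 1121 counts in H2AZ cKO and 1221 in H2AZ fl/fl, and Zfp64 had 323 in H2AZ cKO and 338 in H2AZ fl/fl, both with intervals that held 1. Zfp661 had 136 counts in each library. Over all 16 genes of the chromosome, the summed ratio was 0.920 (0.881 to 0.960), from 3890 counts in H2AZ cKO and 4376 in H2AZ fl/fl.

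Chromosome 13 holds a large KRAB array from Zfp712 to Zfp273 (chr13:67038594-67827002), which contains Rsl1, a gene whose protein represses male-specific genes in mouse liver. Of its 16 genes, 12 were below 0, the median log2 ratio was -0.13 and the values ran from -0.53 to 0.50. Summed counts were 1072 in H2AZ cKO and 1203 in H2AZ fl/fl, a ratio of 0.922 (0.848 to 1.002). The proximal part of the array was lower. Its first 8 genes by position, Zfp712 to Zfp459, had 205 counts in H2AZ cKO and 287 in H2AZ fl/fl, a ratio of 0.739 (0.615 to 0.887), and the last 8, Zfp58 to Zfp273, had 867 in H2AZ cKO and 916 in H2AZ fl/fl, a ratio of 0.979 (0.891 to 1.08). This division by position was made after the values were seen and the difference between the parts was not tested. Zfp712, the first gene, had 49 counts in H2AZ cKO and 77 in H2AZ fl/fl, a ratio of 0.658 (0.450 to 0.954). Its neighbour Zfp759 had 40 counts in H2AZ cKO and 61 in H2AZ fl/fl, and Zfp455 had 20 in H2AZ cKO and 31 in H2AZ fl/fl, both with intervals that reached past 1. In the last 8 genes, Zfp738 had 121 counts in H2AZ cKO and 165 in H2AZ fl/fl, a ratio of 0.759 (0.595 to 0.965), and Zfp65, with the most counts of the array, had 202 in H2AZ cKO and 220 in H2AZ fl/fl. Of the 75-base words of Zfp738, 13.9% also occur in other genes. Zfp87 had 175 counts in H2AZ cKO and 186 in H2AZ fl/fl. Zfp58 and Zfp85 stood on the other side. Zfp58 had 57 counts in H2AZ cKO and 39 in H2AZ fl/fl, a ratio of 1.51 (0.989 to 2.33), the highest among the 83 genes; at a log2(CPM + 1) difference of 0.50 it stayed inside 1.5-fold. Of its 75-base words, 44.8% also occur in Gm26965, which it overlaps. Zfp85 had 46 counts in H2AZ cKO and 33 in H2AZ fl/fl, a ratio of 1.44 (0.902 to 2.33), and 20.1% of its words occur in other genes. Zfp748 had 172 counts in H2AZ cKO and 158 in H2AZ fl/fl. All 3 intervals held 1.

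The small cluster from Zfp808 to Zfp934 on the same chromosome had 144 counts in H2AZ cKO and 151 in H2AZ fl/fl, a ratio of 0.987 (0.780 to 1.25). Zfp808 had 70 counts in H2AZ cKO and 74 in H2AZ fl/fl. Zfp935 had 53 in H2AZ cKO and 60 in H2AZ fl/fl, and 99.2% of its 75-base words also occur in Gm49359, so reads of these genes may not be separable. Isolated on chromosome 13, Zfp131, a BTB domain zinc finger gene with no KRAB, had 694 counts in H2AZ cKO and 613 in H2AZ fl/fl, a ratio of 1.17 (1.05 to 1.31). It was the only one of the 83 genes whose interval stayed above 1 under all 4 scalings of the libraries.

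Chromosome 17 holds the largest array, 23 genes from Zfp160 to Zfp13 (chr17:21008941-23599487). Summed counts were 3922 in H2AZ cKO and 4133 in H2AZ fl/fl, a ratio of 0.982 (0.940 to 1.03), and 14 genes were below 0. Most of those sit at the proximal end. Of the first 12 genes by position, Zfp160 to Zfp995, 10 were below 0, with 1373 counts in H2AZ cKO and 1543 in H2AZ fl/fl, a ratio of 0.921 (0.855 to 0.991). Of the last 11, Zfp942 to Zfp13, 4 were below 0, with 2549 counts in H2AZ cKO and 2590 in H2AZ fl/fl, a ratio of 1.02 (0.964 to 1.08). As on chromosome 13, the division was made after the values were seen and not tested. Zfp677 had 21 counts in H2AZ cKO and 57 in H2AZ fl/fl, a ratio of 0.381 (0.219 to 0.639) and, at a log2 ratio of -1.10, the lowest of the 83 genes on that scale. None of its 75-base words occur in another gene, but it overlaps Gm18519. Next to it, Zfp160 had 226 counts in H2AZ cKO and 285 in H2AZ fl/fl, a ratio of 0.820 (0.686 to 0.980), and on its other side Zfp54 had 28 in H2AZ cKO and 32 in H2AZ fl/fl, a ratio of 0.905 (0.525 to 1.55). Neither neighbour was as low. Zfp760 had 355 counts in H2AZ cKO and 316 in H2AZ fl/fl, a ratio of 1.16 (0.996 to 1.36), and Zfp213, annotated with a SCAN domain, had 123 in H2AZ cKO and 106 in H2AZ fl/fl. The array's highest counts were those of Zfp946, with 523 counts in H2AZ cKO and 507 in H2AZ fl/fl, and Zfp40, with 405 in H2AZ cKO and 397 in H2AZ fl/fl.

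The start region of Zfp677 is shown beside that of Zfp871, the other gene of chromosome 17 past 1.5-fold, in the same RefSeq windows and with each CG in capitals. Zfp677 is at chr17:21383498-21383797 on the plus strand and Zfp871 at chr17:32788238-32788537 on the minus strand.
Zfp677: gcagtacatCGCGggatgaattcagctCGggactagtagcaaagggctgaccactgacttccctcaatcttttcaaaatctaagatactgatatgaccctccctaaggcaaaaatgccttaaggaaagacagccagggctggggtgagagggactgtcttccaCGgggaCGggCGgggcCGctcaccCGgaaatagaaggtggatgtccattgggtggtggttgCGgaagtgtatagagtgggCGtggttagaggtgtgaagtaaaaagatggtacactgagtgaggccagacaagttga
Zfp871: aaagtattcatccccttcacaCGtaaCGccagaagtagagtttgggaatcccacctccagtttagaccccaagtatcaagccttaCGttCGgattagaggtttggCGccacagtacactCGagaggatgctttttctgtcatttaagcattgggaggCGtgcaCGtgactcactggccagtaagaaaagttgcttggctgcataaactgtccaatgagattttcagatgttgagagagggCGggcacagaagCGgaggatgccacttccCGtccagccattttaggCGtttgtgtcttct
These windows hold CG 10 and 12 times, more than those of the distal chromosome 2 genes.

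Within the large array of chromosome 17, Zfp943 and Zfp758 are shown as the pair with the most alike start regions of the array. Zfp943 had 222 counts in H2AZ cKO and 202 in H2AZ fl/fl, a ratio of 1.14 (0.935 to 1.38), and Zfp758 had 54 in H2AZ cKO and 50 in H2AZ fl/fl, a ratio of 1.12 (0.746 to 1.68). Both start back to back with another of the genes. Between the start of Zfp943 and that of Zfp942 lie 87 bases, and between those of Zfp758 and Zfp944 lie 52 bases. Zfp942 had 208 counts in H2AZ cKO and 231 in H2AZ fl/fl, and Zfp944 had 191 in H2AZ cKO and 205 in H2AZ fl/fl. In both pairs, the gene on the plus strand was slightly above 0 and the gene on the minus strand slightly below, with intervals that held 1 in all 4 genes. The windows of Zfp943, at chr17:21962309-21962608 on the plus strand, and of Zfp758, at chr17:22361213-22361512 on the plus strand, follow in the same form.
Zfp943: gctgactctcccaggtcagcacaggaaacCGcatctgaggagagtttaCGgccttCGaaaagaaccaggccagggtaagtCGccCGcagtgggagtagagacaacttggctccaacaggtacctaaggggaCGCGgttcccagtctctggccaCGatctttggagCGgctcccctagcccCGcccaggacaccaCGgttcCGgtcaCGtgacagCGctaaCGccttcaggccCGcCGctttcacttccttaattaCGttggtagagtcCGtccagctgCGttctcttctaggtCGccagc
Zfp758: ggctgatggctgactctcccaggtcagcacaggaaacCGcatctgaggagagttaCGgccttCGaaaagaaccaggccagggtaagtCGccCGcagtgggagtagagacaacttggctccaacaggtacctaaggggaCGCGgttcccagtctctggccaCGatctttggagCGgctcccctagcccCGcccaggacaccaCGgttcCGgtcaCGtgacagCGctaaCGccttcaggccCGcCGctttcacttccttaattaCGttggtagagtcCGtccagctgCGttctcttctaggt
They are 94.8% identical by the same measure, share an unbroken run of 248 bases, and hold CG 21 and 20 times.

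The array from Zfp871 to Zfp414 on chromosome 17 (chr17:32771236-33631779) had 2679 counts in H2AZ cKO and 3009 in H2AZ fl/fl, a ratio of 0.921 (0.874 to 0.971), with 8 of 11 genes below 0. Zfp871, its first gene, had 50 counts in H2AZ cKO and 115 in H2AZ fl/fl, a ratio of 0.450 (0.316 to 0.632). It shares no 75-base word with another gene and overlaps none. Zfp799, the third gene, had 217 counts in H2AZ cKO and 336 in H2AZ fl/fl, a ratio of 0.668 (0.561 to 0.795), which on the log2(CPM + 1) scale of -0.56 was just inside 1.5-fold. Between them, Zfp811 had 527 counts in H2AZ cKO and 589 in H2AZ fl/fl, a ratio of 0.926 (0.821 to 1.04). So 2 genes of the proximal end were lower beyond counting error and the gene between them was not. Farther on, Zfp563 had 59 counts in H2AZ cKO and 88 in H2AZ fl/fl, a ratio of 0.694 (0.490 to 0.976), and Zfp101 had 238 in H2AZ cKO and 297 in H2AZ fl/fl, a ratio of 0.829 (0.696 to 0.987). Zfp81 lay between those 2 at 552 counts in H2AZ cKO and 576 in H2AZ fl/fl, and Zfp414, which has no KRAB domain in the table, had 457 in H2AZ cKO and 423 in H2AZ fl/fl. Isolated on this chromosome, Zfp57 had 2517 counts in H2AZ cKO and 2441 in H2AZ fl/fl, a ratio of 1.07 (1.01 to 1.13). Its interval held 1 under each of the 3 other scalings. Zfp598, whose protein marks collided ribosomes, had 1011 counts in H2AZ cKO and 981 in H2AZ fl/fl, and Zfp523 had 990 in H2AZ cKO and 1003 in H2AZ fl/fl.

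Zinc finger genes of other chromosomes also lay slightly below 0. Of 82 such genes on chromosome 7, 57 were below 0 (69.5%) and the median log2 ratio was -0.09; of 152 on the other chromosomes, 100 were below 0 (65.8%), with a median of -0.08. At least 1.5-fold lower were 10 of these 234 genes (4.27%) and at least 1.5-fold higher was 1. Other genes within the cluster spans are a local comparison. The 9 with a KRAB domain, none of them among the 83, had 368 counts in H2AZ cKO and 443 in H2AZ fl/fl; their median log2 ratio was -0.17, and 8 were below 0. The 20 without one had a median of 0.01, with 9 below 0. None of these differences between sets was tested.

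Genes for the proteins that act with KRAB zinc finger proteins lay on both sides of 0. Of 24 listed corepressor genes, all 24 were detected, 12 were below and 12 above 0, the median log2 ratio was 0.01, and 0 differed by 1.5-fold, against 2.45% lower and 1.54% higher among all genes. The counting interval was wholly below 1 for 7 of them and wholly above 1 for 5, where 11.3% and 12.9% of all genes did so. These shares do not compare like with like, since the corepressor genes had a median of 3036 summed counts and all genes 548, which makes their intervals narrower. Under total count scaling the numbers were 9 and 3. Trim28, the corepressor itself, had 6662 counts in H2AZ cKO and 6485 in H2AZ fl/fl, a ratio of 1.06 (1.03 to 1.10). Setdb1, which methylates histone H3 at lysine 9, had 1007 counts in H2AZ cKO and 1207 in H2AZ fl/fl, a ratio of 0.863 (0.793 to 0.939). Atf7ip, the partner that stabilises SETDB1, had 1330 counts in H2AZ cKO and 1657 in H2AZ fl/fl, a ratio of 0.830 (0.772 to 0.893). The enzyme and its partner were both lower in H2AZ cKO under each of the 4 scalings. The interval of Trim28 held 1 with scaling by total count (0.998 to 1.07), and its log2 ratio was -0.02 with the trend on length, GC content and level removed, against 0.09 without. Mphosph8, a subunit of the HUSH silencing complex, had 502 counts in H2AZ cKO and 442 in H2AZ fl/fl, a ratio of 1.18 (1.03 to 1.34). Cbx3, which encodes a heterochromatin protein that reads methylated histone H3, had 2959 counts in H2AZ cKO and 2622 in H2AZ fl/fl, a ratio of 1.17 (1.11 to 1.23).

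RefSeq promoter windows were found for 75 of the 83 genes. Some lay far from the deposited gene start, among them those of Zfp52 (19507 bases), Zfp983 (6971 bases) and Zfp217 (5428 bases). The 75 windows held CG a median of 10 times (range 1 to 49), against 7 times (0 to 67) in all 32851 windows of the same length. Each zinc finger gene gave 1 window, the nearest to its deposited start. The 32851 windows were taken without choice of window or minimum count, so the sets are unlike. In the 60 windows of KRAB genes the median was 9.5 and in the 15 others it was 22. The 5 genes at least 1.5-fold lower in H2AZ cKO had a median of 4 (3 to 12), and the 70 within 1.5-fold had a median of 10 (1 to 49). Of those 5 windows, 3 are the similar ones of the distal chromosome 2 genes, which share sequence and are not independent.

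The authors' deposited table marks 4 of the 83 genes as significant, Zfp970, Zfp971, Zfp677 and Zfp871, all lower in H2AZ cKO, where 0.778% of all genes were marked and lower. The sources used here do not name the test behind that mark or the replicates that entered it, and the table holds 1 count column per genotype.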

How the data were processed

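RNA of telencephalic tissue was sequenced, and the table holds 1 count column per genotype, whether pooled or 1 replicate being unstated; per the labels' protocols, total RNA went into an Illumina TruSeq kit. The submitters' processing notes name Bowtie2 2.2.3, TopHat2 2.0.12, HTSeq 0.6.0 and mm9, without order. Gene positions in the table are those of GRCm38: of 19119 compared with GENCODE M21, 99.95% overlap the same gene and 79.1% are identical. The deposited counts are whole numbers per Ensembl gene, and the sources used here name neither strand use nor the handling of multiple matches. The deposited CPM columns hold library-size-relative counts made by the authors and served only as an alternative. The authors' log2 and fold columns and p-values were not used, except their mark of significance and the sign of their log2 column for the genes so marked. The column named WT was read as H2AZ fl/fl, the only other genotype labelled. Symbols were matched by identifier for 19112 of 19202 rows.

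Counts were scaled by TMM (edgeR 4.0.16, R 4.3.3). Ratios, log2(CPM + 1) differences and intervals were computed in Python 3.11.15 with scipy 1.17.1, and the scripts were tested on simulated data. The depth limits precision: at these counts, intervals of genes under 50 summed counts span more than 3-fold. Transcript lengths, overlaps and shared words come from GENCODE M21. Counts are given by rule for the 4 highest and 4 lowest genes per chromosome at 50 summed counts or more, the 2 most abundant per cluster, genes whose interval excludes 1, 6 genes of known role, and, among corepressors, the 3 that differ most with Trim28 and Setdb1. The ratio and interval are printed for all zinc finger genes whose interval excludes 1 and for only part of the rest. Other genes named were chosen after their values were seen. The genes and lists were chosen with earlier results of these data known. Alternatives were pseudocounts, scalings (total count, DESeq2 1.42.0, deposited CPM), minimums, size, cluster gap, removal of a length, GC and level trend, and leaving out genes that share sequence or overlap.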

Additional observations from a re-analysis of the deposited data

How the results depend on the processing

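None of the 15 zinc finger genes whose counting interval left out 1 changed sign under any alternative that was run. Trim28, of the corepressor list, did so with the trend removed. Values close to 0 also did: the medians of the clusters of Zfp120 to Zfp442 (-0.024 with total count scaling) and Zfp335 to Zfp334 (0.047 with the trend removed), and 5 named genes, Zfp106, Zfp120, Zfp334, Zfp81 and Zfp937, all within 0.074 of 0. The median log2 ratio of the 83 genes ranged from -0.11 to -0.05 and was -0.11 with scaling by total count and with the CPM as deposited. The 5 genes at least 1.5-fold lower became 7 with a pseudocount of 0.1 CPM, 6 with each other scaling, 4 at a minimum of 50, 2 with a pseudocount of 5 CPM, 3 at a size of 2-fold, 2 without genes sharing sequence (64 left) and 3 without genes overlapping another (46 left). With that pseudocount of 0.1 CPM, 1 gene was 1.5-fold higher. Intervals wholly above 1 numbered 1 with scaling by total count, DESeq2 size factors or the deposited CPM, and 1 without overlapping genes, which left 8 wholly below 1; the 13 below 1 became 15 with scaling by total count or the deposited CPM. The cluster of Zfp335 to Zfp334 had a median of 0.083 without sharing and 0.083 without overlapping genes, and that of Zfp712 to Zfp273 -0.25 without sharing and -0.41 without overlapping genes. These medians rest on fewer genes and depend on which ones are left. Of 319 values of named genes, 1 moved by more than the distance from the middle to the end of its counting interval on the log2 scale: Zfp57, at 0.001 with the trend removed. By that measure low genes have wide room, and Zfp971 ran from -1.65 (pseudocount 0.1) to -0.45 (pseudocount 5). The distal chromosome 2 cluster had a median between -1.11 and -0.42. It gave no value with a gap of 0.5 Mb or without sharing genes. With a gap of 2 Mb, the chromosome 13 clusters merged to 21 genes with a median of -0.11. Dropping the summed count minimum was chosen after seeing the data; it gave 6 genes at least 1.5-fold lower and medians of -0.19 for Zfp712 to Zfp273 and -0.77 for the distal chromosome 2 cluster. Summed ratios of clusters and other sets were not recomputed with other scalings. No paired analysis was possible because there is 1 column per genotype. Counts under 50 limit single genes of the distal chromosome 2 cluster and the proximal chromosome 13 array.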
